A study of Mus musculus with 36 samples.

Results

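The comparison described here asks whether a Met agonist acted on the mouse liver in the same way after 2 different diets. It is the product term of diet and protein, that is, the effect of Fc(mML1)B3 under the standard diet minus its effect under HFD, and it was computed from all 36 of the 36 bulk liver RNA-seq libraries of the series. Fc(mML1)B3 is a human IgG1 Fc in which a macrocyclic peptide that binds mouse Met is grafted into a surface loop named B3, so that the Fc dimer mimics hepatocyte growth factor (HGF), the ligand of Met. The control protein is the Fc without the peptide. All 36 mice were C57BL/6J males, bought at 7 weeks of age, and all were fed CDAHFD, a choline-deficient, L-amino acid-defined diet with 60 kcal% fat, for 12 weeks. In the HFD experiment this was followed by 2 weeks of a diet with 60 kcal% fat and normal choline, with weekly injections of Fc at 4.3 mg/kg (n = 10) or Fc(mML1)B3 at 5 mg/kg (n = 10). In the standard diet experiment it was followed by 10 days of standard diet, with injections on days 1, 4 and 7 of Fc at 4.3 mg/kg (n = 9) or Fc(mML1)B3 at 5 mg/kg (n = 7). The groups are called HFD Fc, HFD Fc(mML1)B3, standard diet Fc and standard diet Fc(mML1)B3 below.

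Diet goes together with the experiment, the length of the treatment and the injection schedule, so these cannot be told apart in the product term. The hour of liver collection is not given in the sources used here. The file names carry numbers that fall into 5 series, which may or may not mark a batch: series A holds the 10 HFD Fc libraries, B and C hold 4 and 6 HFD Fc(mML1)B3 libraries, D holds 5 standard diet Fc libraries, and E holds 4 standard diet Fc and all 7 standard diet Fc(mML1)B3 libraries. Under HFD the series and the protein therefore cannot be told apart, while under the standard diet the effect can be given within series E. Total counts ran from 14949035 to 28466853 per library (median 23558194.5), hepatocyte transcripts were high in every library (Alb 66600 to 107000 CPM, counts scaled to library size), and the muscle gene Myh4 was at 0 in 36 libraries. Summed smooth and striated muscle transcripts reached 37.9 CPM in a series C library (median of HFD Fc(mML1)B3 2.98 CPM), against at most 7.99 CPM in HFD Fc. HFD Fc mice 7 and 8 had the lowest cholesterol-synthesis transcripts of their group, and mouse 7 also the highest neutrophil transcripts. In bulk tissue, fewer cells of a type and less RNA per cell cannot be told apart.

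As background, liver cells carry a circadian clock in which the Arntl and Clock (or Npas2) proteins switch on genes with E-box sequences, among them the Per and Cry repressors, the Nr1d1 and Nr1d2 repressors and the activators Dbp, Tef and Hlf, which act through D-box sequences. Arntl transcripts and Dbp transcripts peak at opposite times of day. Many genes of lipid, glycogen, heme and protein-folding metabolism in the liver are rhythmic or follow feeding. Endoplasmic reticulum (ER) chaperones follow the load of secretory proteins, and the cholesterol-synthesis enzymes follow the transcription factor Srebf2, which is held back in the ER by the Insig proteins.

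Of 14105 genes tested, 1278 (9.06%) had a product term that passed an adjusted p of 0.05 (edgeR quasi-likelihood test, Benjamini-Hochberg adjustment). The effect of Fc(mML1)B3 was more positive under the standard diet for 657 genes (4.66%) and more negative for 621 (4.4%). These 2 sets are called higher and lower interaction. The differences were mostly moderate, with a median size of 0.56 on the log2 scale, and 229 genes differed by more than 1. Under HFD 3133 genes (22.2%) differed between Fc(mML1)B3 and Fc, 1542 up and 1591 down. The number series goes together with the protein there, so these differences cannot be assigned to either. Under the standard diet 785 genes (5.57%) differed, 459 up and 326 down. These counts rest on a spread shared by both experiments: fits of each diet alone gave 1083 up and 889 down under HFD, and 1162 up and 1024 down under the standard diet. In the shared fit, most of the called interactions were of genes that passed under HFD and did not pass under the standard diet, a split that was not computed for the separate fits: 423 rose under HFD (33.1% of those called) and 389 fell (30.4%). The sign of the effect was opposite in the 2 diets for 84.8% of the called genes and for 40.7% of all genes tested, a contrast that the choice of genes with a large difference itself favours. Over all genes the 2 effects were weakly related (Pearson r = 0.163, Spearman rank correlation 0.226 over 14105 genes, which are not independent replicates).

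**Figure D1:**
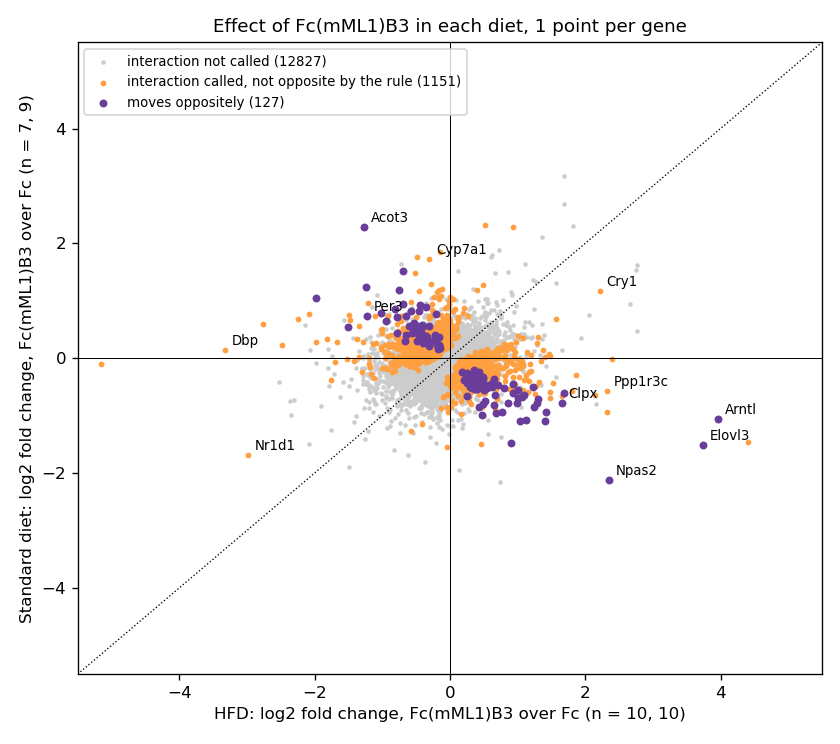
Log2 fold change of Fc(mML1)B3 over Fc under HFD (x axis) and under the standard diet (y axis), 1 point per gene, with equal effects on the dotted line. The 127 genes that move oppositely lie in the upper left and lower right, with Arntl, Elovl3 and Npas2 at the far right.

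A gene was said to move oppositely where the interaction passed the test and both within-diet effects passed with opposite signs. This held for 127 genes (0.9% of those tested). Of these, 72 (0.51%) rose under HFD and fell under the standard diet, and 55 (0.39%) fell under HFD and rose under the standard diet. Their median size of effect was close in the 2 diets, 0.48 under HFD and 0.49 under the standard diet on the log2 scale. The first group was led by Arntl, Clpx, Pnp, Clock, Avpr1a, Pde9a, Eps8l2, Elovl3, Cldn1 and Insig2, and the second by Ngef, Slc5a6, Per3, Ell3, Acot3, Parp10, Slc16a12, Wee1, Tef and Apol7a. By list, 4 of 8 genes listed with the clock's Arntl phase (Elovl3 included) and 5 of 14 of the Dbp phase moved oppositely, and 15 of the 127 belonged to any of the gene lists used. No member of the matrix, neutrophil, macrophage, endothelial or cholangiocyte lists did. With 0.9% of all genes moving oppositely, lists of this size would hold few, so this does not set them apart. Other lists, such as fatty acid synthesis, bile acid and interferon response, held none either. The count depended on which libraries and fits were used. Within series E alone the standard diet effect passed for 96 of the 127 (median size 0.43), though the genes were chosen on a fit that held these same libraries, so this is no independent check. A fit of the 4 groups with series E only called 7 and 5 opposite genes, and with HFD Fc(mML1)B3 series B only the counts were 46 and 34. With within-diet calls from fits of each diet alone they were 118 and 74. Without standard diet Fc mouse 1 the second group held 35 genes.

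**Figure D2:**
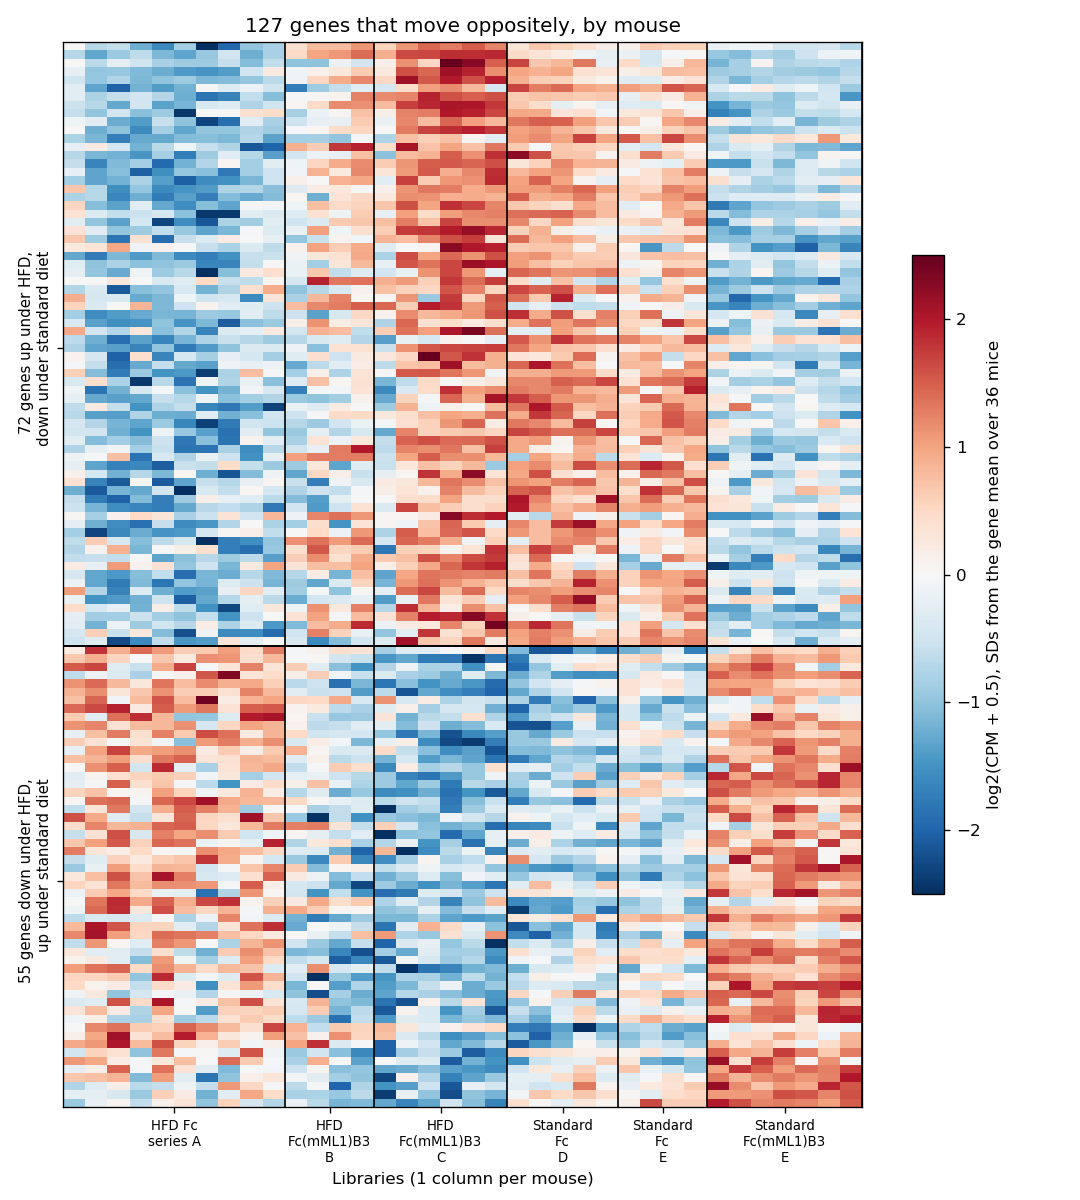
Level of the 127 genes that move oppositely in each of the 36 mice, as log2(CPM + 0.5) in SDs from the gene mean, with libraries ordered by group and number series. In the upper block of 72 genes HFD Fc and standard diet Fc(mML1)B3 are low and the other groups high, and in the lower block of 55 genes this is turned around.

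Clock genes and Elovl3, a rhythmic output gene listed with them, held the largest product terms among genes that rose under HFD and fell under the standard diet. Of the 8 genes of the Arntl-phase list, 6 had a lower interaction and none a higher one (4.4% of all genes were lower), with a median product term of -1.92 against 0.02 over all genes. Arntl, the obligate partner of Clock at E-boxes (chr7:113207465-113314126, mm10), was at 0.621 to 2.12 CPM (median 1.14) in HFD Fc and at 6.59 to 28.6 CPM (median 19.7) in HFD Fc(mML1)B3. Under the standard diet Arntl was at 2.29 to 6.42 CPM (median 3.63) in Fc and at 0.92 to 3.38 CPM (median 1.5) in Fc(mML1)B3. So the HFD groups did not overlap and the standard diet groups did. The log2 change was 3.97 ± 0.29 (SE) under HFD and -1.05 ± 0.3 under the standard diet, and the product term was -5.02 ± 0.42 (adjusted p = 1.48e-10). Within series E the standard diet effect on Arntl was -0.76 ± 0.32 (adjusted p = 0.171).

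Clock itself (chr5:76209868-76304792) was at 14.5 to 21.9 CPM (median 17.6) in HFD Fc and 17.9 to 44.7 CPM (median 37.2) in HFD Fc(mML1)B3. It was at 35.6 to 51.1 CPM (median 41.4) in standard diet Fc and 23.2 to 30.7 CPM (median 25.3) in standard diet Fc(mML1)B3. Here the standard diet groups did not overlap, also within series E, where the effect was -0.66 ± 0.09 (adjusted p = 0.000483). The product term of Clock was -1.69 ± 0.16 (adjusted p = 2.39e-09).

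Elovl3, an elongase of very long chain fatty acids with a strong daily rhythm in liver, had a product term of -5.25 ± 0.54 (adjusted p = 1.03e-08). Its level was 0.25 to 38 CPM (median 11.2) in HFD Fc and 65.6 to 282 CPM (median 160) in HFD Fc(mML1)B3. Under the standard diet it was 44.9 to 92.8 CPM (median 78.6) in Fc and 15.3 to 34.1 CPM (median 21.8) in Fc(mML1)B3. The groups did not overlap in either diet, and within series E the effect was -1.58 ± 0.2 (adjusted p = 0.000472). Exons of Elovl3 overlap those of Pitx3, and reads were counted without regard to strand. Nfil3, a repressor that competes at D-boxes, rose under HFD, from a median of 11.4 to 39.2 CPM, and under the standard diet was at medians of 16.3 and 13.4 CPM (adjusted p = 0.344). Its product term was -2.15 ± 0.22 (adjusted p = 6.53e-09). Npas2, chosen for mention after its values were seen, changed by 2.35 ± 0.51 under HFD and by -2.12 ± 0.58 under the standard diet. Its levels were very low, and under HFD the higher values were those of series C: medians were 0.209 CPM in HFD Fc, 0.18 CPM in series B and 1.46 CPM in series C. With series B only its product term of -2.06 did not pass (adjusted p = 0.109).

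The clock genes of the Dbp phase went the other way. Of 14, 11 had a higher interaction and none a lower one (4.66% of all genes were higher), and the list's median product term was 1.41. Dbp (chr7:45705247-45710203), the D-box activator, was at 73.1 CPM or more (median 97.8) in every HFD Fc mouse and at 3.14 to 24.8 CPM (median 6.33) in HFD Fc(mML1)B3. It was at 36 to 93 CPM (median 71.3) in standard diet Fc and at 55.2 to 113 CPM (median 66.9) in standard diet Fc(mML1)B3. Dbp thus fell under HFD with no overlap of the groups (-3.32 ± 0.28), while the standard diet groups overlapped (0.14 ± 0.28, adjusted p = 0.83). Its product term was 3.46 ± 0.39 (adjusted p = 4.86e-08). Exons of Dbp overlap those of Sphk2.

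Per3 (chr4:151003655-151044665), a repressor of Clock and Arntl, moved oppositely with no overlap of the groups in either diet. It was at 37 to 56.1 CPM (median 45.2) in HFD Fc and 12.3 to 28.8 CPM (median 17.9) in HFD Fc(mML1)B3. It was at 18.3 to 38.1 CPM (median 31.5) in standard diet Fc and 43 to 59.6 CPM (median 47.5) in standard diet Fc(mML1)B3. The product term was 1.96 ± 0.19 (adjusted p = 4.12e-09), and the effect within series E was 0.56 ± 0.1 (adjusted p = 0.0039). Wee1, a kinase that holds back entry into mitosis and a known clock output, had medians of 26.8 and 16.3 CPM under HFD and 13.1 and 29.4 CPM under the standard diet, Fc first. Its product term was 1.64 ± 0.19 (adjusted p = 8.65e-08). Tef, a second D-box activator, changed by -0.78 ± 0.09 under HFD and by 0.44 ± 0.11 under the standard diet.

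Not all clock genes moved oppositely. Among members chosen for mention after their values were seen, Cry1, a repressor of Clock and Arntl, rose in both diets (2.21 ± 0.19 and 1.17 ± 0.21, HFD first), Nr1d1, a repressor of Arntl, fell in both (-2.99 ± 0.26 and -1.68 ± 0.28), and Per2 rose in both (0.4 ± 0.12 and 1.18 ± 0.13). For these 3 genes the size of the effect differed between the diets (adjusted p = 0.0114, 0.0169 and 0.00308). Within series E the standard diet effects of Cry1, Nr1d1 and Per2 all passed the test.

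**Figure D3:**
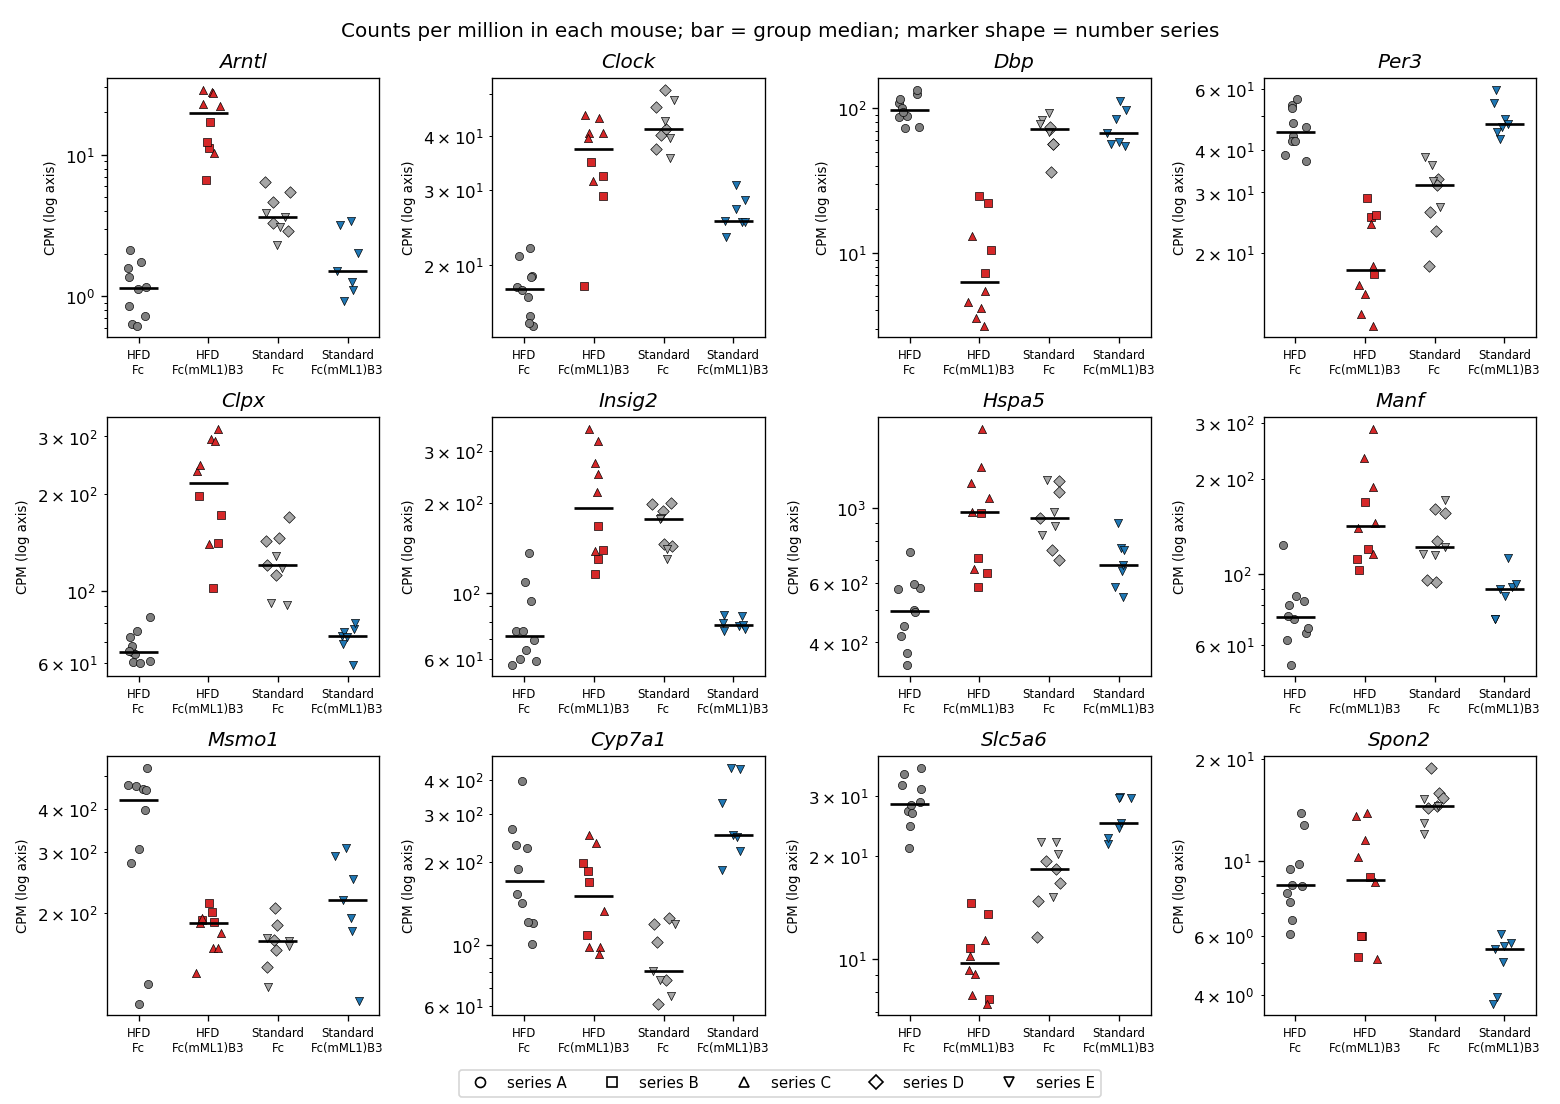
CPM of 12 genes in each mouse on a log axis, with the group median as a bar and the number series as marker shape. Arntl, Clock, Clpx and Insig2 are low in HFD Fc and standard diet Fc(mML1)B3, whereas Per3 and Slc5a6 are high in these groups. Spon2 and Cyp7a1 differ between the standard diet groups and overlap under HFD.

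The promoters of 2 leading members of the Dbp-phase list are shown because they carry the sequences through which the clock acts. The 250 bases before the start of Tef (chr15:81802423-81802672, plus strand) and of Per3 (chr4:151044666-151044915, minus strand) come from RefSeq (GRCm38.p6). Capitals mark the E-box CACGTG in Tef, which begins 127 bases before the start, and 2 copies of the D-box TTATGTAA in Per3, which begin 205 and 158 bases before it.
Tef: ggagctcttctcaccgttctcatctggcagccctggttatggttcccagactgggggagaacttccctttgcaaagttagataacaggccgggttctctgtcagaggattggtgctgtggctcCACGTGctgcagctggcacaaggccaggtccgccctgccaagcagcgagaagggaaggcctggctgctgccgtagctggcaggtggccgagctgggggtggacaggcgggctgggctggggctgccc
Per3: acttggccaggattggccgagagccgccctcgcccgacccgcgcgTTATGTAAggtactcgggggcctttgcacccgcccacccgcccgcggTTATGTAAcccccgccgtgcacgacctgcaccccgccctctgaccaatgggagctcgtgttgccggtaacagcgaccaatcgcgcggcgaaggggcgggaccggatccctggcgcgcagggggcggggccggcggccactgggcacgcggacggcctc
RefSeq promoters were matched for 10706 of the 14105 genes, and both strands were searched in the 250 bases. CACGTG was found in 9.54% of all these genes, in 4 of 11 matched Dbp-phase genes and in 16 of 95 matched genes that move oppositely (16.8%). TTATGTAA or TTATGCAA was found in 1.43% of all genes, in 3.43% of genes with a higher interaction, in 0.637% of those with a lower one, and in 8 of 95 genes that move oppositely (8.42%). A match is a description of the letters and not evidence of binding.

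A clock score was taken for each library as the mean log2 CPM of Arntl, Npas2, Clock, Nfil3 and Cry1 minus that of Dbp, Tef, Nr1d1, Nr1d2, Per3, Ciart and Usp2. It was -4.87 to -3.74 (median -4.39) in HFD Fc and -2.3 to 1.11 (median -0.25) in HFD Fc(mML1)B3, so these groups did not overlap. Within HFD Fc(mML1)B3 it was -2.3 to -0.672 in series B and -1.03 to 1.11 in series C. It was -3.78 to -1.39 (median -2.96) in standard diet Fc and -4.38 to -3.28 (median -3.84) in standard diet Fc(mML1)B3, which overlapped, and in series E the Fc libraries lay between -3.78 and -2.77. With this score as a covariate, 0 of 14105 product terms passed the test (edgeR), against 1097 at an unadjusted p under 0.05. In that fit the median standard error of the product term was 1.84 times larger, the median size over the 1278 genes fell from 0.56 to 0.25, and 257 of them (20.1%) changed sign. The score is built from genes that define the interaction and its HFD groups do not overlap, so the protein and the clock state of the HFD livers cannot be told apart. In that fit the median product term was -0.34 for the clock genes of the Arntl phase and 0.09 for those of the Dbp phase, and it is given below for the chaperone, cholesterol, fatty acid, interferon and B cell lists.

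**Figure D4:**
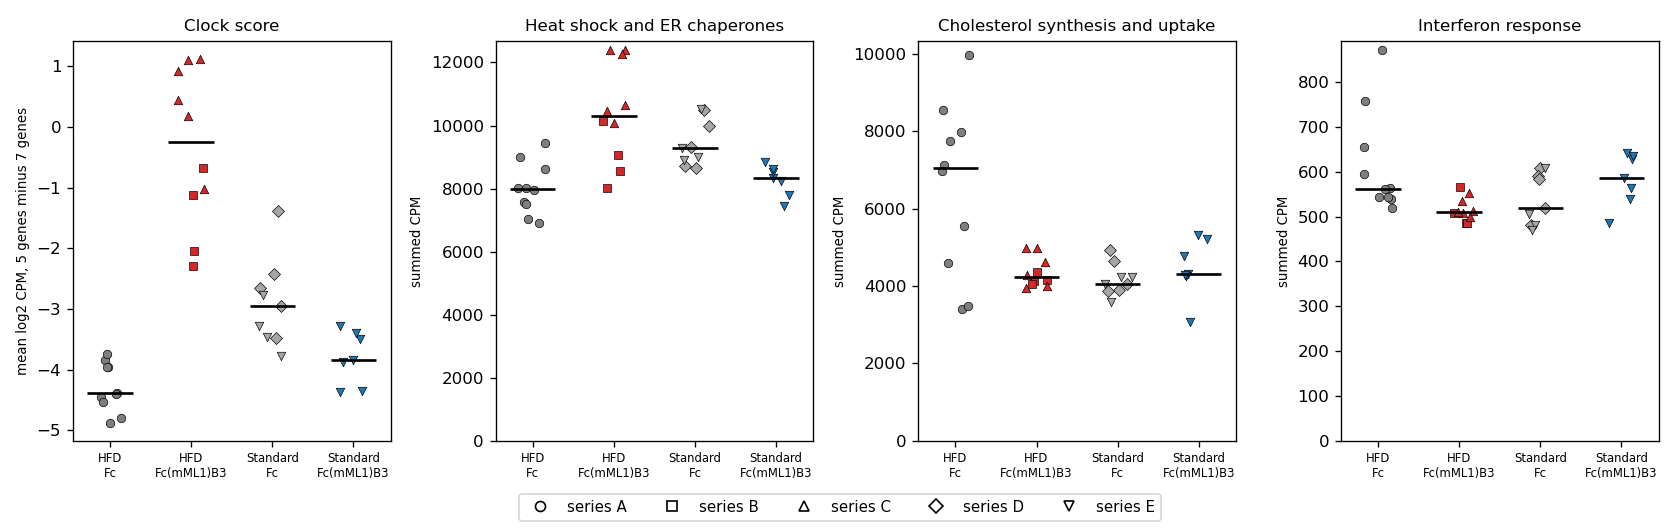
Clock score (log2 scale) and summed CPM of 3 gene lists in each library, with group medians as bars and number series as marker shape. The clock score of HFD Fc(mML1)B3 (-2.3 to 1.11) lies above HFD Fc (-4.87 to -3.74), series C mostly above series B, and the chaperone sum is highest in series C.

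Outside the clock lists, the gene with the smallest p among those that rose under HFD and fell under the standard diet was Clpx, the unfoldase of a mitochondrial protease that also acts in heme synthesis (chr9:65294260-65330658). Clpx was at 60 to 83.2 CPM (median 65.2) in HFD Fc and 102 to 316 CPM (median 216) in HFD Fc(mML1)B3. It was at 91 to 169 CPM (median 120) in standard diet Fc and 59.5 to 80 CPM (median 72.6) in standard diet Fc(mML1)B3. The groups did not overlap in either diet, and the product term was -2.45 ± 0.22 (adjusted p = 4.38e-10). Within HFD Fc(mML1)B3 the median of Clpx was 156 CPM in series B and 267 CPM in series C.

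Insig2, an ER protein that retains the Srebf proteins (chr1:121304353-121332589), was at 57.4 to 136 CPM (median 71.8) in HFD Fc and 115 to 355 CPM (median 193) in HFD Fc(mML1)B3. It was at 130 to 201 CPM (median 177) in standard diet Fc and 74.3 to 84.4 CPM (median 77.8) in standard diet Fc(mML1)B3. The latter groups did not overlap, and the effect within series E was -0.99 ± 0.08 (adjusted p = 1.84e-05). The product term was -2.49 ± 0.26 (adjusted p = 1.56e-08). Avpr1a, the liver vasopressin receptor, had medians of 13 and 34.6 CPM under HFD and 25.9 and 13.5 CPM under the standard diet, Fc first, with no overlap in either diet (product term -2.36 ± 0.23, adjusted p = 4.05e-09). Pnp, a purine nucleoside phosphorylase, moved less but with a small spread: medians were 53.9 and 71.1 CPM under HFD and 80.4 and 57.4 CPM under the standard diet (product term -0.86 ± 0.08, adjusted p = 8.93e-10).

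The other leading members of this direction were the cGMP phosphodiesterase Pde9a (product term -1.74 ± 0.17), the actin regulator Eps8l2 (-1.72 ± 0.17), the tight junction protein Cldn1 (-2.09 ± 0.22) and the threonyl-tRNA synthetase Tars (-1.38 ± 0.15). All 4 rose under HFD and fell under the standard diet, and all 4 passed within series E. Stat5b, which transmits growth hormone signals, moved the same way (0.31 ± 0.07 under HFD, -0.39 ± 0.08 under the standard diet).

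Among genes that fell under HFD and rose under the standard diet, Ngef, a guanine nucleotide exchange factor (chr1:87476829-87573870), was at 42.3 to 57.9 CPM (median 48.4) in HFD Fc and 23.6 to 40.3 CPM (median 30.4) in HFD Fc(mML1)B3. It was at 24 to 35.2 CPM (median 31.8) in standard diet Fc and 46.7 to 56.3 CPM (median 52.7) in standard diet Fc(mML1)B3. The levels in HFD Fc and standard diet Fc(mML1)B3 covered nearly the same range, as did those of the other groups. Ngef had a product term of 1.39 ± 0.12 (adjusted p = 1.48e-10), and within series E the effect was 0.65 ± 0.06 (adjusted p = 3.82e-05).

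Slc5a6, the transporter of biotin and pantothenate (chr5:31036036-31048924), was at 21.2 to 36.1 CPM (median 28.4) in HFD Fc and 7.42 to 14.6 CPM (median 9.77) in HFD Fc(mML1)B3. It was at 11.6 to 22 CPM (median 18.4) in standard diet Fc and 21.7 to 29.8 CPM (median 25) in standard diet Fc(mML1)B3, with overlap at the edge. Slc5a6 had a product term of 2.06 ± 0.18 (adjusted p = 1.73e-10), and the effect within series E was 0.39 ± 0.11 (adjusted p = 0.0563). Exons of Slc5a6 overlap those of Atraid. Acot3, an acyl-CoA thioesterase with close paralogs, had the largest opposite change in this direction (-1.27 ± 0.26 under HFD, 2.29 ± 0.31 under the standard diet). The elongation factor Ell3, the ADP-ribosyltransferase Parp10, the creatine transporter Slc16a12 and the apolipoprotein L gene Apol7a had product terms of 1.8 ± 0.2, 0.96 ± 0.11, 0.98 ± 0.11 and 0.96 ± 0.11. Hook2, a microtubule adaptor, fell under HFD (-0.79 ± 0.07) and did not pass under the standard diet (0.22 ± 0.08, adjusted p = 0.12), with a product term of 1.01 ± 0.11.

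Most heat shock and ER chaperones rose under HFD. Of 28 listed and tested, 17 had a lower interaction (4.4% of all genes did) and none a higher one, with a median product term of -0.58. Under HFD 19 rose and none fell (10.9% of all genes rose), with a median of 0.42. Under the standard diet 1 rose and 4 fell (2.31% of all genes fell), with a median of -0.16, and a fit of that diet alone gave 3 up and 12 down. The 4 members with the smallest interaction p all act in the ER. Hspa5, or BiP, the main ER chaperone (chr2:34772090-34776529), was at 344 to 740 CPM (median 495) in HFD Fc and 582 to 1710 CPM (median 971) in HFD Fc(mML1)B3. It was at 701 to 1210 CPM (median 937) in standard diet Fc and 544 to 906 CPM (median 679) in standard diet Fc(mML1)B3. The groups overlapped in both diets. The product term was -1.41 ± 0.24 (adjusted p = 7.81e-05), made of 0.96 ± 0.16 under HFD and -0.46 ± 0.18 (adjusted p = 0.14) under the standard diet. The latter passed within series E (-0.49 ± 0.13, adjusted p = 0.0321) and in a fit of that diet alone (adjusted p = 0.0123).

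Manf, a secreted ER stress factor, was at 51.9 to 124 CPM in HFD Fc and 103 to 287 CPM in HFD Fc(mML1)B3, and at medians of 122 and 89.9 CPM under the standard diet, Fc first (product term -1.63 ± 0.24, adjusted p = 7.36e-06). Its standard diet effect of -0.55 ± 0.18 did not pass (adjusted p = 0.0581), but did within series E (-0.58 ± 0.12, adjusted p = 0.0127). Creld2 and Hyou1, a disulfide isomerase-like protein and an ER chaperone, had product terms of -1.88 ± 0.3 and -1.58 ± 0.27. Pdia4, a protein disulfide isomerase named after its values were seen, moved oppositely by the rule (0.37 ± 0.11 under HFD, -0.53 ± 0.13 under the standard diet). It was the only chaperone to do so with edgeR, against 2 with DESeq2 and 8 with limma-voom quality weights. Under HFD the higher values of Pdia4 were those of series C: medians were 194 CPM in HFD Fc, 190 CPM in series B and 284 CPM in series C. With series E only, 12 of the 28 had a lower interaction, and with HFD series B only, 11 had. With the clock score as covariate none did, and the list's median product term was 0.06 in place of -0.58.

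The promoters of Creld2 (chr15:88819396-88819645, plus strand) and Hspa5 (chr2:34771840-34772089, plus strand) are shown for the ER stress response element, a bipartite sequence typical of chaperone genes (CCAAT and CCACG with 9 bases between them, on either strand, 250 bases before the start, RefSeq, GRCm38.p6). Capitals mark it, 126 bases before the start of Creld2, where it is on the minus strand, and 65 bases before that of Hspa5.
Creld2: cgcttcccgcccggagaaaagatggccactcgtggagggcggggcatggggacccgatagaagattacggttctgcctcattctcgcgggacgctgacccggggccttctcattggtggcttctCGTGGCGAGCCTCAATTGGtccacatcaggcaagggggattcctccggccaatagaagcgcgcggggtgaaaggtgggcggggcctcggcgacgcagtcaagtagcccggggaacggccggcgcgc
Hspa5: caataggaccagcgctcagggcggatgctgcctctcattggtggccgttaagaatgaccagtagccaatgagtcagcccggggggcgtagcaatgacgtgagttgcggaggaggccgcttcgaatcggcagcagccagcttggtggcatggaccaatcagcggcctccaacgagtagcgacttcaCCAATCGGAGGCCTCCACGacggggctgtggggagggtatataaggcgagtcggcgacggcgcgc
This element was found in 6 of 23 matched chaperone genes and in 19 of all 10706 matched genes (0.177%), of which 7 had a lower interaction and 0 a higher one.

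Many genes of cholesterol synthesis and uptake fell under HFD. Of 25, 8 had a higher interaction (4.66% of all genes did) and none a lower one, with a median product term of 0.66. Under HFD 14 fell and none rose (11.3% of all genes fell), with a median of -0.53. Under the standard diet 2 rose and none fell (3.25% of all genes rose), with a median of 0.12. Fits of each diet alone gave 8 down under HFD, and 5 up and 1 down under the standard diet. Msmo1, a sterol methyl oxidase, was at 109 to 527 CPM (median 427) in HFD Fc and at no more than 214 CPM (median 187) in HFD Fc(mML1)B3. It was at 122 to 206 CPM (median 165) in standard diet Fc and 111 to 308 CPM (median 218) in standard diet Fc(mML1)B3. The groups overlapped in both diets. Msmo1 had an effect of -1.0 ± 0.2 under HFD (adjusted p = 0.000259) and of 0.44 ± 0.22 under the standard diet (adjusted p = 0.275), with a product term of 1.44 ± 0.29 (adjusted p = 0.000827). Lanosterol synthase, Lss, had a product term of 1.08 ± 0.26.

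The HFD Fc group was the one that stood out in cholesterol synthesis. The summed level of the 25 genes was 3410 to 9980 CPM (median 7050) in HFD Fc, and medians in the other groups were 4220 CPM in HFD Fc(mML1)B3, 4060 CPM in standard diet Fc and 4310 CPM in standard diet Fc(mML1)B3. Without HFD Fc mice 7 and 8, 19 of the 25 had a higher interaction and the median product term was 0.84. These mice had the lowest sums of their group and were left out after seeing the data. A rise follows from that choice and is no support. With the clock score as covariate none passed, and the median product term was 0.83.

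The fatty acid synthesis list had 3 higher interactions of 22 (4.66% of all genes were higher) and none lower, with a median product term of 0.42. Without HFD Fc mice 7 and 8, left out after seeing the data, 9 were higher. With the clock score as covariate the median was 0.54. The standard diet fitted alone gave 11 up and 1 down. Srebf1, the transcription factor of this pathway, rose under the standard diet (0.44 ± 0.14, adjusted p = 0.0472) and had an effect of -0.32 ± 0.12 under HFD (adjusted p = 0.0508). Its exons overlap those of Rai1. Elovl6, a fatty acid elongase, rose under the standard diet by 1.09 ± 0.26 and had a product term of 1.22 ± 0.35 (adjusted p = 0.0212, but 0.101 with limma-voom). The desaturase Fads2 had a product term of 0.79 ± 0.24 (adjusted p = 0.0262, and 0.0536 without standard diet Fc(mML1)B3 mouse 7).

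Part of the interferon-response genes fell under HFD. Of 24, 6 had a higher interaction (4.66% of all genes did) and none a lower one (median product term 0.45), 8 fell under HFD (11.3% of all genes did, list median -0.35), and none passed under the standard diet (median 0.08), where a fit of that diet alone called 2 up and its series E libraries alone 3 up. Usp18, which removes ISG15 and damps interferon signalling, was at 14.3 to 23.3 CPM (median 17.1) in HFD Fc and 7.5 to 12.8 CPM (median 9.14) in HFD Fc(mML1)B3, with no overlap. It was at 10.6 to 15.3 CPM (median 13.5) in standard diet Fc and 9.74 to 18 CPM (median 14) in standard diet Fc(mML1)B3. Usp18 had a product term of 1.01 ± 0.15 (adjusted p = 1.62e-05). Ifit1 and Ifit3, which bind foreign RNA or its partners, and Irf7, a factor that amplifies the response, had product terms of 0.94 ± 0.2, 0.69 ± 0.18 and 0.66 ± 0.18. Ifit3 has a near-identical neighbour, Ifit3b, so its counts are uncertain. Without HFD Fc mice 7 and 8 the list had 4 higher interactions and a median of 0.28. With the clock score as covariate its median was 0.72.

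The promoter of Ifit1 (chr19:34640639-34640888, plus strand, RefSeq, GRCm38.p6) shows the interferon-stimulated response element, GAAA and GAAA with 2 bases between them, searched on both strands and here on the minus strand in 2 copies, in capitals, which begin 104 and 85 bases before the start.
Ifit1: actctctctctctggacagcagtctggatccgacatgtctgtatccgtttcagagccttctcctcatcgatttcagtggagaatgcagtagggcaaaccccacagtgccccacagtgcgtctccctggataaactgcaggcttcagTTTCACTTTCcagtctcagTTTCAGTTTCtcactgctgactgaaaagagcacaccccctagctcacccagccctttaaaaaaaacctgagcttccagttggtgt
It was found in 13 of 18 matched interferon genes and in 3.33% of all matched genes.

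Among B and plasma cell markers, 4 of 9 tested had a higher interaction (4.66% of all genes did), none a lower one, 5 fell under HFD (11.3% of all genes did) and none passed under the standard diet. The product term was below 0 for 2 of the 9. The summed level of the list did not follow these members, with medians of 424 CPM in HFD Fc, 442 CPM in HFD Fc(mML1)B3, 484 CPM in standard diet Fc and 487 CPM in standard diet Fc(mML1)B3, and it includes Xbp1, which hepatocytes also express. With the clock score as covariate the median product term was 0.92. The 4 called were Mzb1 (product term 1.83 ± 0.45), Cd79b (1.17 ± 0.29), Ms4a1 (1.23 ± 0.31) and Cd79a (0.92 ± 0.26), which encode a plasma cell chaperone, both chains that signal from the B cell receptor, and CD20. Their levels were low, with group medians from 0.265 CPM (Mzb1 in standard diet Fc) to 3.04 CPM (Cd79b in HFD Fc). The call of Cd79a was lost without standard diet Fc(mML1)B3 mouse 7 (adjusted p = 0.0509). T and NK cell markers had no called interaction (0 of 14, edgeR, with 2 at an unadjusted p under 0.05 and 0 by DESeq2).

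A further set of genes moved under the standard diet and did not pass under HFD. Cyp7a1, the rate-limiting enzyme of bile acid synthesis (chr4:6265612-6275631), was at 61.2 to 125 CPM (median 80.6) in standard diet Fc and 187 to 441 CPM (median 252) in standard diet Fc(mML1)B3, with no overlap. It was at 101 to 395 CPM (median 171) in HFD Fc and 92.6 to 252 CPM (median 151) in HFD Fc(mML1)B3. Its effect was 1.73 ± 0.25 under the standard diet and -0.31 ± 0.22 under HFD (adjusted p = 0.325), and the product term was 2.03 ± 0.33 (adjusted p = 4.27e-05). Within series E the effect of Cyp7a1 was 1.83 ± 0.25 (adjusted p = 0.000579). In the bile acid list of 21 genes, 3 had a higher interaction and 1 a lower one (4.66% and 4.4% of all genes). The bile acid receptor Nr1h4 (0.57 ± 0.11) and the transporter Slco1a4 (0.42 ± 0.13) also rose under the standard diet, and Hsd3b7, a later enzyme of the pathway, fell (-0.64 ± 0.11).

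Some genes of drug metabolism also did so. Por, the electron donor of the cytochrome P450 enzymes, and Cyp2a5 rose under the standard diet by 1.15 ± 0.16 and 1.07 ± 0.2, with effects under HFD of -0.19 ± 0.14 and -0.23 ± 0.18 and product terms of 1.34 ± 0.21 and 1.3 ± 0.26. The HFD effect of Por joins number series that differed, with medians of 530 CPM in HFD Fc, 553 CPM in series B and 354 CPM in series C. Alas1, the first enzyme of heme synthesis, had a product term of 1.63 ± 0.47 (adjusted p = 0.0222). Within series E the standard diet effects of Cyp2a5 and Alas1 were smaller and did not pass (0.7 ± 0.2, adjusted p = 0.0525, and 0.66 ± 0.31, adjusted p = 0.214). Cyp2a4 fell under HFD (-2.08 ± 0.47), did not pass under the standard diet (0.77 ± 0.5, adjusted p = 0.437) and had a product term of 2.84 ± 0.68. Its level was 9.89 to 255 CPM (median 16) in HFD Fc and 6.6 to 16.5 CPM (median 11.2) in HFD Fc(mML1)B3, and its product term was 1.24 without HFD Fc mice 7 and 8. It is nearly identical to Cyp2a5, so the split of reads between them is uncertain. Of the 20 tested genes of this list (CAR and PXR targets) 4 had a higher interaction (4.66% of all genes did) and none a lower one. The list as a whole did not move only under the standard diet. Under HFD 5 rose and 1 fell (10.9% and 11.3% of all genes), with a median of 0.15. Under the standard diet 5 rose and none fell (3.25% of all genes rose), with a median of 0.25. Gab1, the docking protein that binds activated Met, rose under the standard diet (0.45 ± 0.1) with a product term of 0.63 ± 0.14 (adjusted p = 0.00224), the only member called by edgeR among 30 tested genes of the Met list, where limma-voom called 2, beside 9.06% of all genes. Met itself had a product term of 0.33 ± 0.11 (adjusted p = 0.0543), which passed when any of 6 single libraries was left out, HFD Fc mouse 4, HFD Fc(mML1)B3 mice 1, 4 and 9, and standard diet Fc mice 5 and 9 (lowest adjusted p = 0.0369).

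Spon2, a secreted matrix protein, was the only member of the 4 matrix lists with an interaction called by edgeR, beside 9.06% of all genes. It was at 12 to 18.8 CPM (median 14.5) in standard diet Fc and 3.79 to 6.07 CPM (median 5.5) in standard diet Fc(mML1)B3, with no overlap. It was at 6.09 to 13.8 CPM (median 8.47) in HFD Fc and 5.12 to 13.9 CPM (median 8.78) in HFD Fc(mML1)B3, where series B had a median of 5.99 CPM and series C of 10.9 CPM. The product term was -1.5 ± 0.25 (adjusted p = 4.98e-05), and the effect within series E was -1.42 ± 0.13 (adjusted p = 2.81e-05).

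Among genes of glycogen metabolism, Ppp1r3c, a subunit that targets phosphatase to glycogen (chr19:36731731-36736604), rose from 12.1 to 41.6 CPM (median 16.8) in HFD Fc to 34 to 165 CPM (median 106) in HFD Fc(mML1)B3. It was at 32.2 to 77.5 CPM (median 46.6) in standard diet Fc and 24.5 to 43.9 CPM (median 33.1) in standard diet Fc(mML1)B3. The product term was -2.9 ± 0.35 (adjusted p = 1.74e-07). The liver glycogen synthase Gys2 and the transcription factor Foxo1 rose under the standard diet (0.57 ± 0.13 and 0.53 ± 0.11) and had effects of -0.21 ± 0.12 and -0.02 ± 0.1 under HFD. For Foxo1 the HFD medians were 41.8 CPM in Fc, 53.4 CPM in series B and 33.6 CPM in series C, and with series B only its product term of 0.24 did not pass. The insulin receptor substrate Irs1 rose under HFD (0.46 ± 0.11) and Igfbp1, an insulin-repressed binding protein, fell under the standard diet (-1.49 ± 0.4), with product terms of -0.75 ± 0.16 and -1.96 ± 0.51. Within series E the effect on Igfbp1 was -1.25 ± 0.37 (adjusted p = 0.0549). A fit of the standard diet alone called falls of Ppp1r3c (-0.58) and Irs1 (-0.3). The glucose and glycogen list had 4 higher and 1 lower interactions of 20 (4.66% and 4.4% of all genes). The insulin and IGF list had 0 higher and 3 lower of 18.

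In triglyceride handling, the lipid droplet protein Plin5 (1.28 ± 0.14) and the acyltransferase Agpat2 (0.8 ± 0.1) rose under HFD and the lipase Pnpla2 fell (-0.64 ± 0.1), and none of these passed under the standard diet. Dgat2, which makes triglyceride, rose under the standard diet (0.53 ± 0.09). The list of 19 tested genes had 3 higher and 2 lower interactions (4.66% and 4.4% of all genes). Among p53 targets, Cdkn1a, the inhibitor p21, rose under HFD (1.81 ± 0.26, product term -2.38 ± 0.4), as did the death receptor Fas (0.47 ± 0.09), while Gadd45a fell (-0.91 ± 0.14). Gdf15, a stress hormone, rose under HFD by 0.51 ± 0.18 and fell under the standard diet (-0.74 ± 0.2, and -0.65 ± 0.2 within series E, adjusted p = 0.061). The glutathione enzyme Gclc and the stress protein Osgin1 rose under HFD (0.53 ± 0.13 and 0.89 ± 0.2) and Srxn1 and Nqo1, which reduce peroxiredoxins and quinones, fell (-0.55 ± 0.08 and -0.38 ± 0.12). A fit of the standard diet alone called falls of Gclc (-0.45), Osgin1 (-0.54) and Cdkn1a (-0.58). Gclc under HFD had medians of 166 CPM in Fc, 177 CPM in series B and 287 CPM in series C. The call of the interaction of Nqo1 (0.62 ± 0.18) was lost without standard diet Fc(mML1)B3 mouse 5 (adjusted p = 0.0536). The cyclins Ccne1 and Ccnd1 fell under HFD, with product terms of 1.65 ± 0.37 and 0.89 ± 0.22, the only members called by edgeR among 28 cell cycle genes, where DESeq2 and limma-voom called 3 each, beside 9.06% of all genes. The receptor Tgfbr2 fell under HFD (-0.3 ± 0.07) with a product term of 0.53 ± 0.11. By list, 1 of 18 p53 targets had a higher interaction and 3 a lower one (4.66% and 4.4% of all genes). The counts were 2 and 2 of 21 antioxidant genes and 1 and 2 of 23 TGF-beta and Smad genes.

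**Figure D5:**
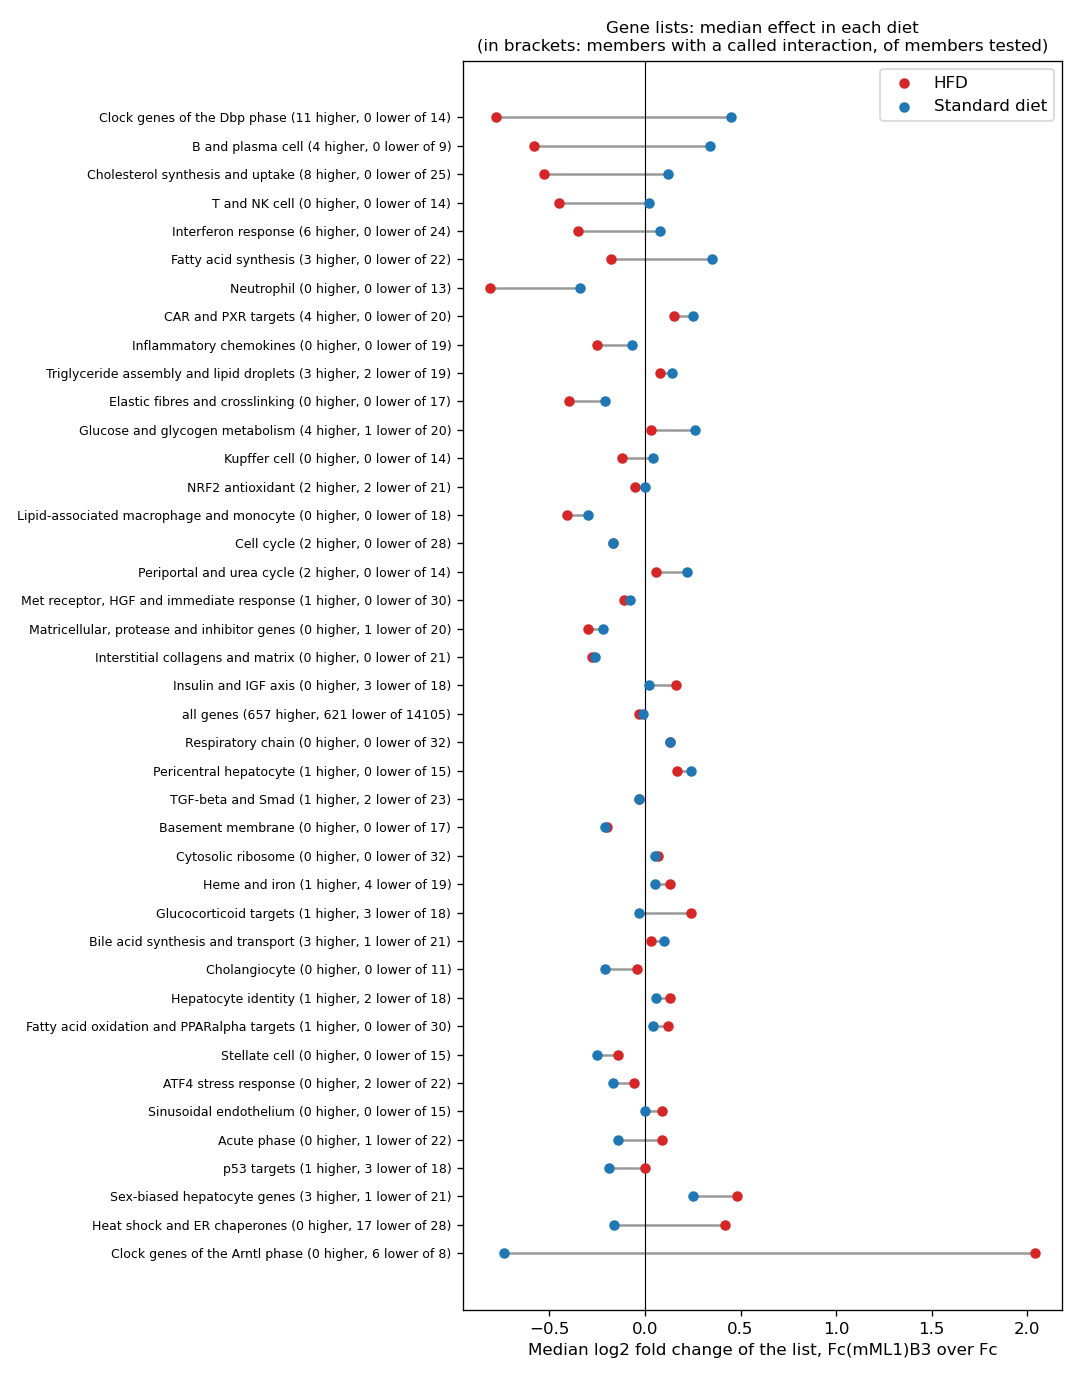
Median log2 fold change of each gene list with at least 8 members tested, under HFD (red) and under the standard diet (blue), with the members of called interaction in brackets. Among others, the clock, chaperone, cholesterol synthesis, B cell and fatty acid synthesis lists have medians on opposite sides of 0. Matrix, neutrophil and lipid-associated macrophage lists, among others, lie below 0 in both diets.

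The 3 lists of structural matrix genes had medians below 0 in both diets, and no difference between the diets was called. Medians below 0 in both diets were not particular to matrix, as the neutrophil and lipid-associated macrophage lists had them too. Interstitial collagens and matrix had 0 of 21 called interactions, basement membrane 0 of 17 and elastic fibres and crosslinking 0 of 17 (edgeR). With 9.06% of all genes called, lists of this size would hold few calls, so these counts do not set the lists apart. At an unadjusted p under 0.05 the counts were 1, 1 and 2, DESeq2 called 1, 0 and 0, and limma-voom called 0 in each. The signs were negative in both diets for 17 of 21, 13 of 17 and 13 of 17 members, and the medians were -0.28 and -0.26, -0.2 and -0.21, and -0.4 and -0.21, HFD first. Not every HFD Fc(mML1)B3 library was low. The highest summed level was 4690 CPM there and 4040 CPM in HFD Fc for interstitial matrix, and 577 and 465 CPM for elastic fibres. For basement membrane it was 1090 and 1370 CPM. Lox, a lysyl oxidase that crosslinks collagen and elastin, was at 0.674 to 2.57 CPM (median 1.99) in HFD Fc and 0.936 to 2.78 CPM (median 1.38) in HFD Fc(mML1)B3. It was at 1.75 to 4.16 CPM (median 2.67) in standard diet Fc and 0.921 to 1.83 CPM (median 1.13) in standard diet Fc(mML1)B3. Its effect was -0.41 ± 0.2 (adjusted p = 0.142) and -1.11 ± 0.23 (adjusted p = 0.00151), and the product term of -0.7 ± 0.3 did not pass (adjusted p = 0.165). Elastin, Eln, had effects of -0.74 ± 0.29 and -1.13 ± 0.33, and Loxl1 of -1.1 ± 0.27 and -0.58 ± 0.31, HFD first. A missed threshold does not show that these effects were equal.

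The neutrophil list also had 0 called interactions of 13 tested (edgeR, with 0 at an unadjusted p under 0.05 and 0 by DESeq2), beside 9.06% of all genes. S100a8 and S100a9, the calprotectin subunits, fell under HFD (-1.47 ± 0.44 and -1.28 ± 0.44) and had standard diet effects of -0.36 ± 0.47 and -0.3 ± 0.48. These values rested on single mice. Within series E the standard diet effects were 0.53 ± 0.27 and 0.28 ± 0.27 and did not pass (adjusted p = 0.269 and 0.576). Without standard diet Fc mouse 5 the product terms were 1.88 (adjusted p = 0.0166) and 1.76 (adjusted p = 0.0342), and without HFD Fc mice 7 and 8 that of S100a9 was -0.05. Of 20 genes that the study discusses by name, 19 were tested and 0 had a called interaction (edgeR, with 5 at an unadjusted p under 0.05, 0 by DESeq2 and 1 by limma-voom). Among them, Tgfb1 had a product term of 0.28 ± 0.15, the stellate cell marker Acta2 of -0.75 ± 0.47 and the macrophage marker Adgre1 of 0.18 ± 0.18. When each library was left out in turn, the product term of Acta2 ran from -0.84 to -0.15. In HFD Fc(mML1)B3 Acta2 was at 3.24 to 36.5 CPM (median 5.94). Kupffer cell, lipid-associated macrophage, sinusoidal endothelium, cholangiocyte, cytosolic ribosome and respiratory chain lists had 0 called interactions by edgeR and by DESeq2.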

How the data were processed

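Liver RNA of 36 mice was sequenced as paired ends with a strand-specific kit. Reads were trimmed with fastp, ribosomal reads were removed with Bowtie2 2.4.5, the rest were aligned to mm10 with STAR 2.7.10a, and featureCounts 2.0.3 (Subread) counted reads per gene, according to the study's methods. The command in the file headers sets neither pair counting, strand nor multimapping, so that by the tool's defaults each end of a pair was counted (1 pair gives 2 counts), strand was ignored and multimapping reads were left out. The files deposited by the authors hold these raw counts, 1 file per library. Groups were taken from the labels. Nothing else in the labels ties mice to litters or cages, so p-values measure the spread between these mice.

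A single edgeR 4.0.16 quasi-likelihood fit (R 4.3.3, TMM, filterByExpr) held 4 group means, and the product term and both within-diet effects were contrasts of it, with Benjamini-Hochberg adjustment over 14105 genes, an adjusted p threshold of 0.05 and no fold limit. The study itself analysed each diet alone. The members and the gene lists were chosen with earlier results of these data known, so no p is given over a list. Named genes were the 12 with the smallest p in each direction of the product term, the 10 in each direction of opposite movement, up to 4 per described list, and genes discussed in the study. Clone-named genes were counted and not named, and not every gene the rule allows is described. CPM are counts scaled to TMM-adjusted library sizes. On simulated data made from these libraries, tested over 14105 genes, 68% of product terms of 1 and 94% of those of 2 (log2) were recovered, and 5.26% of calls were false. The simulation held the same spread in both diets and no difference between number series, so it does not give the false share of the reported calls. Alternatives used DESeq2 1.42.0, limma 3.58.1, other normalizations, filters and thresholds, a replicate block, a clock score covariate, subsets of libraries and the leaving out of each library. Some results are not reported here.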

Additional observations from a re-analysis of the deposited data

Results flagged for a closer look

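The difference between the diets was itself tested and passed for 657 genes with a higher and 621 with a lower interaction, of which 72 rose under HFD and fell under the standard diet and 55 did the reverse. Product terms that passed are repeated here on the log2 scale for genes with levels given in all 4 groups. Those below 0 included Elovl3 (-5.25), Arntl (-5.02), Ppp1r3c (-2.90), Insig2 (-2.49), Clpx (-2.45), Avpr1a (-2.36), Nfil3 (-2.15), Clock (-1.69), Manf (-1.63), Spon2 (-1.50), Hspa5 (-1.41) and Pnp (-0.86). Those above 0 included Dbp (3.46), Slc5a6 (2.06), Cyp7a1 (2.03), Per3 (1.96), Wee1 (1.64), Msmo1 (1.44), Ngef (1.39) and Usp18 (1.01).

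Single mice lay far from their group in 9 of 112 groups of values examined by Dixon's test, where chance flags about 1 in 20. HFD Fc mouse 1 had 38 CPM of Elovl3, against 0.25 to 17.2 CPM in the others, and 41.6 CPM of Ppp1r3c, against 12.1 to 24.3 CPM. HFD Fc mouse 7 had 124 CPM of Manf, against 51.9 to 85.4 CPM, a summed neutrophil marker level of 995 CPM, against 164 to 405 CPM, and a summed B and plasma cell level of 548 CPM, against 384 to 469 CPM. Standard diet Fc mouse 5 had a summed neutrophil level of 365 CPM, against 32.2 to 79.5 CPM, and a B and plasma cell level of 615 CPM, against 452 to 520 CPM. Standard diet Fc mouse 2 had 77.5 CPM of Ppp1r3c, against 32.2 to 54 CPM, and HFD Fc(mML1)B3 mouse 5 had 2.78 CPM of Lox, against 0.936 to 1.67 CPM.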

How the results depend on the processing

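Counts are given in the order higher interaction, lower interaction, opposite genes up under HFD, opposite genes down under HFD (657, 621, 72 and 55 as reported). They were 1015, 1011, 158 and 119 with limma-voom quality weights, 0, 0, 0 and 0 with the clock score, 309, 314, 7 and 5 with standard diet series E only, 354, 260, 46 and 34 with HFD Fc(mML1)B3 series B only, 318, 319, 24 and 18 at an adjusted p of 0.01, and 119, 110, 37 and 25 with a size above 1. With series C only the lower interactions were 1041 and the genes up under HFD 114. At an adjusted p of 0.1 the opposite genes were 110 and 93. With within-diet calls from each diet alone, an alternative chosen after seeing the data, 118 were up and 74 down under HFD. Each diet fitted alone gave 889 genes down under HFD, and 1162 up and 1024 down under the standard diet. Leaving out each library gave 507 to 709, 520 to 838, 55 to 90 and 35 to 63. DESeq2 gave 630, 793, 97 and 56. With the clock score the product term changed sign for Hspa5 (0.06), Npas2 (2.14), Cry1 (0.53), Nr1d1 (-0.95), Pdia4 (0.11), Foxo1 (-0.06), Irs1 (0.03), Pnpla2 (-0.15), Alas1 (-0.35) and Tgfb1 (-0.07). It did so for Eln (0.23) with series B only and for S100a9 (-0.05) without HFD Fc mice 7 and 8, also chosen after seeing the data. The causes were not tested.

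With the replicate number as a block within each diet, the counts were 439, 449, 46 and 25. The numbers did not pair the mice: correlations of same-numbered mice were -0.62 to 0.259 under HFD and -0.156 to 0.001 under the standard diet, and no mouse correlated best with its own number.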

Other observations

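Some lists are not described above. Over all genes, 9.06% had a called interaction (edgeR). Fatty acid oxidation had 1 of 30, acute phase genes 1 of 22, pericentral hepatocyte genes 1 of 15 and periportal and urea cycle genes 2 of 14. Heme and iron genes had 1 higher and 4 lower of 19, with Clpx the only member to move oppositely. Sex-biased hepatocyte genes had 3 higher and 1 lower of 21, and included Elovl3 and Acot3, which moved oppositely in opposite directions. Glucocorticoid targets had 1 higher and 3 lower of 18.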
